A study of Saccharomyces cerevisiae with 6 samples.

Results

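Mitochondria of budding yeast make fatty acids with a set of separate enzymes, each encoded by a nuclear gene of its own, and 8 of these genes were followed here in cells overexpressing ACC1. They were HFA1, PPT2, ACP1, MCT1, CEM1, OAR1, HTD2 and ETR1, chosen by name as the mitochondrial type II fatty acid synthesis pathway, and all 8 were found among the 979 yeast genes on the arrays. Labelled RNA of a wild type strain carrying extra ACC1 expression was hybridized to 3 single-colour oligonucleotide arrays, and that of the wild type strain to 3 others. Both groups share the wild type background. Of the strain's name, the promoter and copy number behind the overexpression, and the growth medium, the labels say nothing. ACC1 encodes the cytosolic acetyl-CoA carboxylase, which turns acetyl-CoA into malonyl-CoA for the large cytosolic fatty acid synthase.

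The mitochondrial route runs in parallel to the cytosolic one. Hfa1, a close relative of Acc1, supplies malonyl-CoA in the mitochondrion, Mct1 loads it onto the acyl carrier protein Acp1, and Ppt2 gives Acp1 the phosphopantetheine arm that holds the growing chain. Cem1 condenses, Oar1 reduces, Htd2 dehydrates and Etr1 reduces again, and the octanoyl chain made in this way is the precursor of lipoic acid, the cofactor of pyruvate dehydrogenase and alpha-ketoglutarate dehydrogenase. Yeast that lack most of these enzymes are known for failing to respire.

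Each gene was read by a single probe, printed in 2 or 3 spots per array, and every value below comes from these letters. They are shown as the files list them, 5′ to 3′, with the longest run shared with any other yeast probe on the array in capitals. The capitals compare probes with probes only, and whether another transcript binds a probe was not tested.
HFA1: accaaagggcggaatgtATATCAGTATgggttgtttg
PPT2: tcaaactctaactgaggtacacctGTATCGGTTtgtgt
ACP1: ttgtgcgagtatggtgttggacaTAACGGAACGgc
MCT1: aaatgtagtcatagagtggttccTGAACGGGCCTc
CEM1: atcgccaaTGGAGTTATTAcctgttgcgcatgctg
OAR1: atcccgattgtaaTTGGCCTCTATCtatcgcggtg
HTD2: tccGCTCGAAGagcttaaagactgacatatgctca
ETR1: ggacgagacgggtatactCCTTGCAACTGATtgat

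The shared run was 13 bases in ETR1 (with the BIR1 probe), 12 in OAR1 (with OAF1), 11 in MCT1 and in CEM1, 10 in HFA1 and in ACP1, 9 in PPT2 and 8 in HTD2. The HFA1 probe shared at most 5 bases with the ACC1 probe. The 2 probes read different stretches, however: by the positions in the probe names, bases 5631 to 5667 of the HFA1 coding sequence and bases 6279 to 6313 of that of ACC1. Whether the HFA1 probe also binds ACC1 RNA was not tested, since only probes were compared. By the same names, the ACP1 probe lay at bases 65 to 99 and the OAR1 probe at bases 129 to 163 from the start of the coding sequence, and the MCT1 probe at bases 720 to 754.

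ACC1 itself was read first as the check of the labels. Its normalized log2 intensity was 14.00, 14.12 and 14.13 in ACC1 overexpression replicates 1, 2 and 3, against 11.67, 11.76 and 11.87 in wild type replicates 1, 2 and 3, a difference of 2.32 with a standard error of 0.07 (limma adjusted p = 1.18e-07). Normalization removed an overall gap in brightness: yeast spots had a median intensity of 1900 ± 114 in ACC1 overexpression and 4120 ± 440 in wild type (SD, n = 3 each). The control probes, which carry no yeast gene name, had median spots at 1078 ± 52 in ACC1 overexpression and 2031 ± 98 in wild type (SD, n = 3 each). Slides and scans are not identified in the labels, so that differences in hybridization or scanning and the overexpression cannot be told apart. Nothing in the labels says that the replicates were grown separately, and p-values here cover only the spread among these arrays, which could be technical. Precision is limited throughout by the number of arrays. In RNA of whole cultures, a change in every cell and a larger change in some cells cannot be told apart either.

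None of the 8 genes passed the threshold, set at a limma p of 0.05 after adjustment by Benjamini and Hochberg across the 979 genes. Of all genes, 3.47% passed it, 2.66% as higher and 0.817% as lower. At an unadjusted p of 0.05, 1 of the 8 passed, namely ACP1, against 20.1% of all genes. Differences of the 8 ran from −0.24 to 0.12 on the log2 scale with a median of 0.01, and the median over all genes was −0.01. Positive differences were found for 4 of the 8 and for 454 of all 979 genes. Groups that did not overlap were found for ACP1 alone among the 8, as lower, and for 24.7% of all genes, 11.4% as lower and 13.3% as higher. These shares lie near or below those of all genes.

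**Figure D1:**
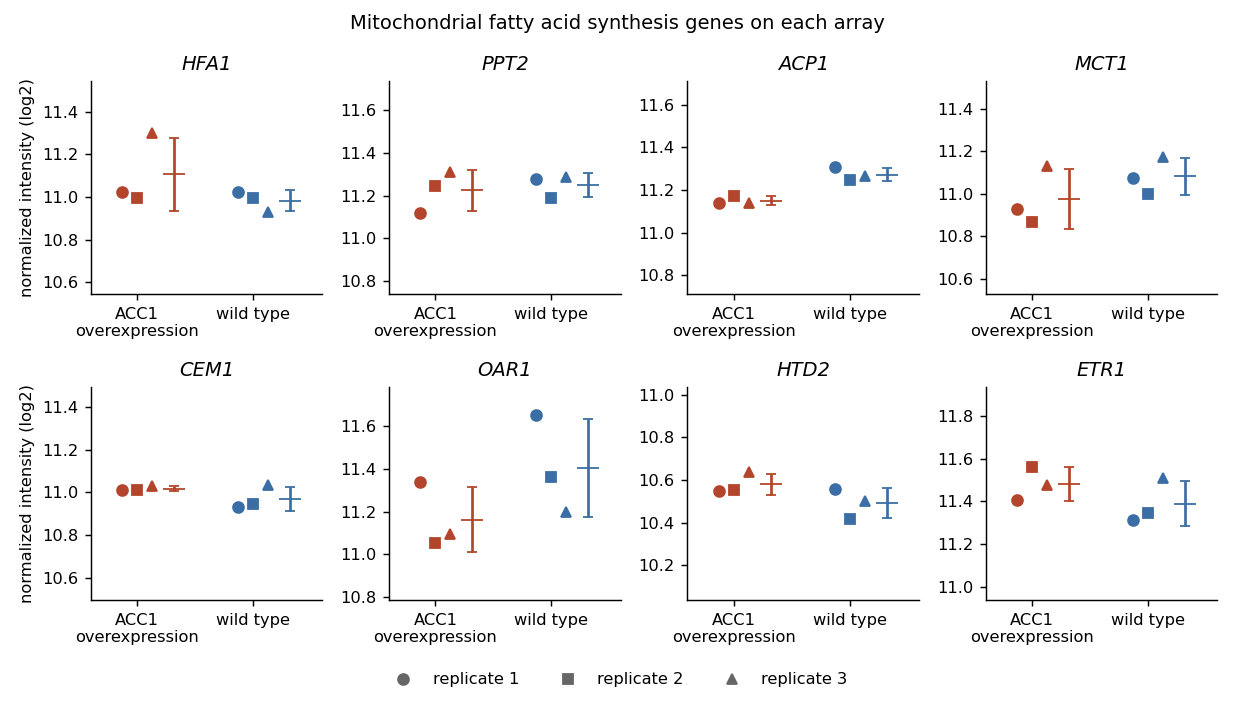
Normalized log2 intensity of the 8 genes on each array, ACC1 overexpression on the left and wild type on the right of each panel, with the mean and SD of each group (n = 3) as a bar beside the points. Every panel spans 1 log2 unit; the groups overlap in all panels but that of ACP1.

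The signals were low. As a yardstick for background, a gene counted as above the control probes on an array when the mean of its spots was higher than percentile 95 of the 26 control probes there. ETR1, OAR1, PPT2 and ACP1 did so on all 6 arrays. HFA1 and CEM1 did so on all 3 ACC1 overexpression arrays and on 2 of the 3 wild type arrays, and MCT1 on 2 arrays of each group. HTD2 did so on no array. ETR1 stood between 1.10 and 1.74 times that percentile over the arrays, OAR1 between 1.15 and 1.43 times, and ACP1 between 1.10 and 1.45 times. Since the deposited intensities come with no background column, none was subtracted, and folds of signals this close to the control probes are understated where background had not been removed.

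**Figure D2:**
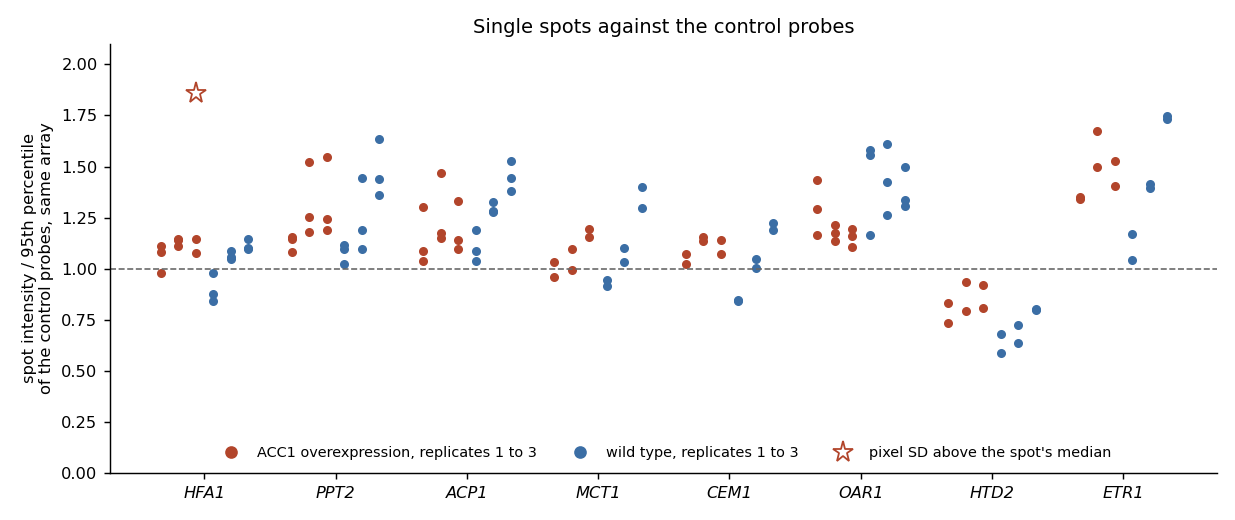
Intensity of every single spot of the 8 genes, divided by the 95th percentile of the control probes on the same array (dashed line at 1), with ACC1 overexpression replicates 1 to 3 left of wild type replicates 1 to 3 for each gene. All HTD2 spots lie below the line, and the star marks the HFA1 spot on ACC1 overexpression replicate 3 whose pixels varied by more than its median.

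HFA1 supplies malonyl-CoA to the pathway and is the relative of the overexpressed enzyme. Its normalized log2 intensity was 11.02, 10.99 and 11.30 in ACC1 overexpression replicates 1, 2 and 3, against 11.02, 11.00 and 10.93 in wild type replicates 1, 2 and 3. Only ACC1 overexpression replicate 3 stood apart, and the other 5 arrays lay within the same narrow range. The difference was 0.12 with a standard error of 0.08 (95% interval −0.07 to 0.32, limma adjusted p = 0.461).

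The high array rested on 1 spot. On ACC1 overexpression replicate 3, the 3 HFA1 spots had intensities of 1626, 1528.5 and 2638, and the pixels of the last one had a standard deviation of 22953, or 870% of its own median. Across all spots of the 6 arrays, the median of that share was 20.6%. Spots whose pixel standard deviation exceeded their median numbered 46 of 13440, and this was the only one among the spots of the 8 genes. With these spots left out, a choice made after the spots were seen, HFA1 stood at 11.04 on that array, and the difference became 0.04 with a standard error of 0.05 (limma adjusted p = 0.765). It was 0.03 without ACC1 overexpression replicate 3 altogether. ACC1, read by its own probe on the same RNA, differed 4.99-fold, but its signal was brighter and the sizes are not on a like scale. Whether the HFA1 probe also binds ACC1 RNA cannot be read from these values and was not tested.

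ACP1, the carrier protein on which the chain is built, was the only one of the 8 with separate groups. It stood at 11.14, 11.17 and 11.14 in ACC1 overexpression replicates 1, 2 and 3, against 11.31, 11.24 and 11.27 in wild type replicates 1, 2 and 3. All 3 ACC1 overexpression arrays were below all 3 wild type arrays, and the array values of each group lay close together. The single spots were less even. On ACC1 overexpression replicate 2 they had intensities of 1798.5, 1440.5 and 1413, a ratio of 1.27. On wild type replicate 1, the first spot had a pixel standard deviation of 67.6% of its median. What single spots contribute to the ACP1 difference was not tested. The difference of ACP1 was −0.12 with a standard error of 0.05 (95% interval −0.24 to −0.003), which did not pass over all genes (limma adjusted p = 0.238). With the median over the 3 spots in place of their mean it was −0.19 (limma adjusted p = 0.0927). With arrays scaled to one common median it was −0.06. With background estimated and removed in 3 settings it ran from −0.40 to −0.35, and it did not pass (limma adjusted p from 0.132 to 0.137). The sign was negative in all 17 alternatives, but these reuse the same arrays and are not independent. The filter on dim genes, the trended and robust variances and the replicate block leave the estimate itself unchanged.

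PPT2 arms Acp1 and showed the smallest difference. It stood at 11.12, 11.24 and 11.31 in ACC1 overexpression replicates 1, 2 and 3, against 11.28, 11.19 and 11.29 in wild type replicates 1, 2 and 3. The ranges of the groups overlapped widely. The difference was −0.03 with a standard error of 0.07 (95% interval −0.18 to 0.12, limma adjusted p = 0.881), and its sign turned with a common median, at 0.04.

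MCT1 loads malonyl groups onto Acp1. It stood at 10.93, 10.87 and 11.13 in ACC1 overexpression replicates 1, 2 and 3, against 11.08, 11.00 and 11.17 in wild type replicates 1, 2 and 3. Replicate 3 was the highest array of both groups, and the ranges overlapped. The difference was −0.11 with a standard error of 0.08 (95% interval −0.29 to 0.08, limma adjusted p = 0.506). With a common median it was −0.002.

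Of the 4 enzymes of the elongation cycle, OAR1, the ketoacyl reductase, had the largest difference of the 8 genes. It stood at 11.34, 11.05 and 11.10 in ACC1 overexpression replicates 1, 2 and 3, against 11.65, 11.36 and 11.20 in wild type replicates 1, 2 and 3. Wild type replicate 1 was the highest array and ACC1 overexpression replicate 1 lay above wild type replicate 3, so that the groups overlapped. The difference was −0.24 with a standard error of 0.12 (95% interval −0.51 to 0.03, or 0.70-fold to 1.02-fold; limma adjusted p = 0.295). This lay at percentile 5.11 of the differences of all genes.

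The size of the OAR1 difference depended on the arrays. Arrays with the same replicate number sat at the same rows of the layout, and within these positions 1, 2 and 3 OAR1 differed by −0.31, −0.31 and −0.10. The difference was −0.33 when ACC1 overexpression replicate 1 was left out, −0.12 when wild type replicate 1 was left out and −0.34 when wild type replicate 3 was left out, and none of these passed. The spots of OAR1 on wild type replicate 1 ranged from 3487 to 4738.5 in intensity, a ratio of 1.36. With the array position as a replicate block in the model the difference stayed at −0.24, its standard error was 0.06, and OAR1 passed (limma adjusted p = 0.0299). In that fit 121 of all 979 genes passed, against 34 in the main fit. The part of single spots in the OAR1 difference was not tested.

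CEM1, the condensing enzyme, was the steadiest of the 8 across arrays. It stood at 11.01, 11.01 and 11.03 in ACC1 overexpression replicates 1, 2 and 3, against 10.93, 10.94 and 11.03 in wild type replicates 1, 2 and 3. The 6 values spanned 0.10, and wild type replicate 3 was level with the highest ACC1 overexpression array. The difference was 0.05 with a standard error of 0.05 (95% interval −0.08 to 0.17, limma adjusted p = 0.672).

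ETR1 encodes the enoyl reductase that closes the cycle. It stood at 11.41, 11.56 and 11.48 in ACC1 overexpression replicates 1, 2 and 3, against 11.31, 11.35 and 11.51 in wild type replicates 1, 2 and 3. Wild type replicate 3 lay inside the ACC1 overexpression range, and the other 2 wild type arrays lay below it. The difference was 0.09 with a standard error of 0.07 (95% interval −0.07 to 0.26, limma adjusted p = 0.510).

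HTD2, the dehydratase, did not exceed percentile 95 of the control probes on any array, so no fold is given. Its normalized log2 intensity was 10.55, 10.55 and 10.64 in ACC1 overexpression replicates 1, 2 and 3, against 10.56, 10.42 and 10.50 in wild type replicates 1, 2 and 3. The mean of its spots lay between 0.63 and 0.86 times the 95th percentile of the control probes. At such a signal these arrays do not settle whether HTD2 RNA changed. Among the alternatives it passed with a common median only, as higher (limma adjusted p = 0.0409), where 74 of all 979 genes passed.

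**Figure D3:**
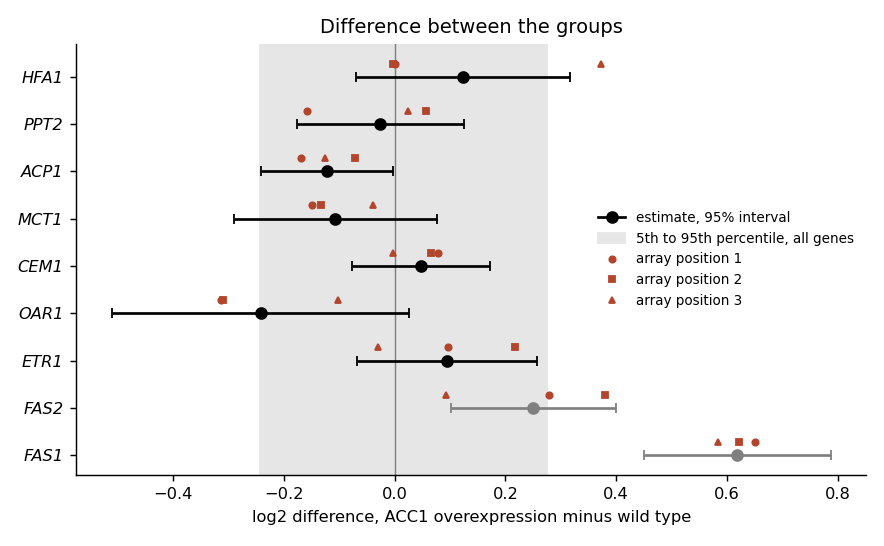
Log2 difference, ACC1 overexpression minus wild type, with its 95% limma interval. Black shows 7 of the 8 genes, and grey the cytosolic synthase genes FAS2 and FAS1. HTD2 is left out, since it did not exceed percentile 95 of the control probes on any array. Small marks give the difference within each array position. The grey band runs from the 5th to the 95th percentile of all genes, −0.24 to 0.28. The 7 estimates lie inside it, while FAS1 at 0.62 lies beyond it. No background was removed, and FAS1 and FAS2 were brighter than the 7 genes, so the sizes are not on a like scale.

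The intervals bound what these arrays could have missed on a single scale, that with no background removed. Among the 7 genes with a fold, the upper bounds ran from −0.003 (ACP1) to 0.32 (HFA1), and the lower bounds from −0.51 (OAR1) to −0.07 (ETR1), on the scale of intensities with no background removed. With normexp at an offset of 50, background was estimated from the intensities themselves. The estimates then spread to between −0.59 (OAR1) and 0.34 (HFA1, with the uneven spot included), and none passed the threshold. Standard errors there were 0.27 for OAR1, 0.25 for MCT1 and 0.21 for HFA1, against 0.12, 0.08 and 0.08 with no background removed. The bounds above therefore do not hold on that scale, where larger changes could have been missed.

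**Figure D4:**
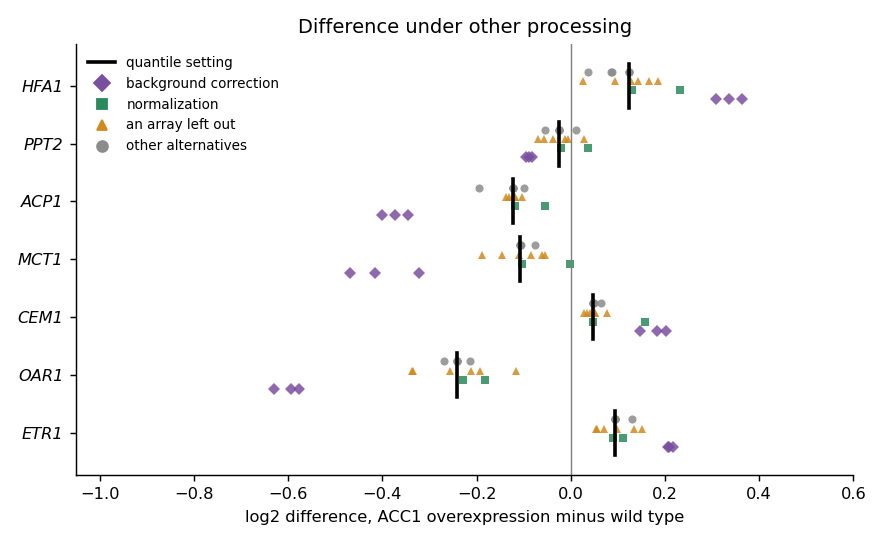
Log2 difference, ACC1 overexpression minus wild type, of 7 genes under quantile normalization (black bars) and under each alternative (coloured marks). Background correction moves the values furthest from 0 for all 7 genes, and PPT2 alone has values on both sides of 0.

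The cytosolic counterparts are given as a yardstick from the same fit. FAS1 and FAS2 encode the 2 subunits of the cytosolic synthase, which holds on 2 chains what Mct1, Acp1, Cem1, Oar1, Htd2 and Etr1 do as separate proteins. FAS1 stood at 13.16, 13.11 and 13.28 in ACC1 overexpression replicates 1, 2 and 3, against 12.51, 12.49 and 12.69 in wild type replicates 1, 2 and 3, and rose by 0.62 with a standard error of 0.07 (limma adjusted p = 0.00407). FAS2 differed by 0.25 (limma adjusted p = 0.0789), with all 3 ACC1 overexpression arrays above all 3 wild type arrays. It passed with array weights (limma adjusted p = 0.00385), with the replicate block (0.0308) and when wild type replicate 3 was left out (0.0312). In these fits 176, 121 and 123 of all 979 genes passed, against 34 in the main fit. With normexp at an offset of 50, FAS1 went from 0.62 to 0.78 and FAS2 from 0.25 to 0.32. Of the dimmer mitochondrial genes, OAR1 went from −0.24 to −0.59, MCT1 from −0.11 to −0.42 and PPT2 from −0.03 to −0.09. Sizes with no background removed are therefore not on a like scale in bright and dim genes. Whether the FAS1 and FAS2 differences exceed those of the mitochondrial genes was not tested. The biotin ligase gene BPL1 was not analysed here.

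Downstream of the pathway, no gene of lipoic acid synthesis and attachment (LIP2, LIP5, AIM22, GCV3) was analysed here. Of 11 listed genes of the complexes that carry lipoic acid, 4 were measured: KGD1 and KGD2 of alpha-ketoglutarate dehydrogenase, and LAT1 and PDX1 of pyruvate dehydrogenase. KGD1, the first subunit, rose by 0.28 with a standard error of 0.06 (limma adjusted p = 0.0413), at 12.62, 12.72 and 12.73 in ACC1 overexpression replicates 1, 2 and 3, against 12.45, 12.40 and 12.38 in wild type replicates 1, 2 and 3. It lost the call with a common median (adjusted p = 0.0671), with every background correction (0.114 to 0.156), with cyclic loess (0.0827), with trended and robust variances (0.0899), without wild type replicate 2 (0.189) and when ACC1 overexpression replicate 1, 2 or 3 was left out (0.0829, 0.148 and 0.148). The E2 subunits, to which lipoyl groups are attached, stood on opposite sides of 0, LAT1 at 0.28 (limma adjusted p = 0.0784) and KGD2 at −0.20 (limma adjusted p = 0.305), neither past the threshold. LAT1 passed with array weights (limma adjusted p = 0.00437), with the replicate block (0.0124) and when wild type replicate 3 was left out (0.0406). Of all 979 genes, 176, 121 and 123 passed in these fits. PDX1 did not exceed the control probes on any array. The 4 genes had a median difference of 0.15, against −0.01 over all genes. KGD1 was the only one of the 4 called, against 3.47% of all genes, and the list as a whole was not tested.

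Of 24 listed genes of the respiratory chain, 11 were measured, 2 rose and 9 did not pass, against 2.66% of all genes called higher. The median difference of the 11 was 0.14, against −0.01 over all genes. The list as a whole was not tested. CYT1 among them did not exceed the control probes on any array, and QCR9 had 1 of its 3 spots saturated on wild type replicate 3. SDH4, at 0.29, passed with array weights (limma adjusted p = 0.0273) and when wild type replicate 3 was left out (0.00882). Those fits called 176 and 123 of all 979 genes. SDH3, the cytochrome b subunit of succinate dehydrogenase, rose by 0.55 (standard error 0.09, limma adjusted p = 0.0175), and RIP1, the Rieske iron-sulfur protein, by 0.40 (standard error 0.06, limma adjusted p = 0.0163). Neither passed without wild type replicate 2 (limma adjusted p = 0.0921 for each) or without any single ACC1 overexpression array (0.0551 to 0.0984). SDH3 also lost the call with normexp at offset 0 (limma adjusted p = 0.0523). The third by p was CYC7, an isoform of cytochrome c, at 0.13 (limma adjusted p = 0.285). Among the 5 HAP genes, which encode regulators of respiratory genes, none passed, against 3.47% of all genes, and their median was −0.004. HAP4, the activating subunit, stood at 0.22 (limma adjusted p = 0.141), HAP3 at −0.28 (limma adjusted p = 0.241) and HAP2 at −0.09 (limma adjusted p = 0.564). HAP4 and HAP3 passed with array weights (limma adjusted p = 0.0420 and 0.0132) and with the replicate block (0.0341 and 0.0289), and HAP3 also when wild type replicate 3 was left out (0.0116). Array weights called 176 of all 979 genes, the block 121 and the fit without wild type replicate 3 called 123. The iron-sulfur assembly genes that partner with Acp1 (NFS1, ISD11, ISU1, ISU2, YFH1) were not analysed here.

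The 8 genes did not follow a common course over the 6 arrays. Over their 28 pairs, Pearson's r of the normalized values ran from −0.92 to 0.84 with a median of 0.15, and over all gene pairs the median was near 0. These are descriptions over 6 arrays that share their normalization. The highest was that of CEM1 with ETR1, and the lowest that of OAR1 with ETR1. Among all genes, the most alike were DRS2 (r = 0.99) and NMT1 (0.98) for HFA1, PLC1 (0.99) and OYE3 (0.98) for ACP1, AIR2 (0.92) and SCC4 (0.88) for PPT2, and NPL3 (0.95) and IFA38 (0.94) for MCT1. For the cycle enzymes they were NCR1 (0.99) and CHK1 (0.98) for CEM1, LEC1 (0.98) and GNA1 (0.98) for OAR1, PDE2 (0.96) and LAT1 (0.91) for HTD2, and HXK1 (0.95) and HFI1 (0.94) for ETR1. With so few arrays and so many candidate genes, an r of at least 0.88 was found for each of the 8. The likeness of HFA1 includes the uneven spot, and that of HTD2 rests on a signal below percentile 95 of the control probes.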

How the data were processed

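Per the labels, total RNA was extracted with TRIzol, amplified with an oligo(dT) primer and labelled with biotin. The deposited tables hold, per the file headers, a median foreground intensity and a pixel standard deviation for each of 2240 spots per array, and no background column. For the scanner software and any subtraction of background, no header or label gives an answer. The authors' deposited value table, a score per array with 906 rows, did not follow the intensities of the probes with its row numbers (r from −0.052 to −0.035), so its rows were not named and it was not used further. Its column medians ran from −0.15 to −0.06, and its scale and centring are unknown.

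Intensities were taken to log2, quantile normalized over the yeast spots without the 26 control probes, and averaged per probe. No background correction was made, since no background column was given. All 979 systematic names were found in the RefSeq gene table of assembly R64, from which only names were taken, with 1 probe per gene. Groups were compared two-sided with limma 3.58.1 (lmFit, eBayes) under R 4.3.3. P-values were adjusted by Benjamini and Hochberg's method over all genes, and the fit was tested on simulated data. Alternatives covered background, normalization, averaging, a filter on dim genes, variances, array weights, the replicate block, the threshold, uneven spots and leaving out each array. The genes and lists were chosen with earlier results of these data known. Named were all 8 pathway genes, the cytosolic counterparts, of each list the genes past the threshold and up to 3 of smallest p, and for each pathway gene the 2 of highest r.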

Additional observations from a re-analysis of the deposited data

How the results depend on the processing

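None of the 8 mitochondrial genes passed the threshold under 15 of 17 alternatives or at an adjusted p of 0.1. With a common median 1 passed, HTD2, higher (limma adjusted p = 0.0409), and 74 of all 979 genes passed in that fit. HTD2 did not exceed percentile 95 of the control probes on any array. With the replicate number as a block 1 passed, OAR1, lower (−0.24, limma adjusted p = 0.0299), and 121 of all 979 genes passed in that fit. Across the alternatives, which reuse the same arrays, OAR1, ACP1 and MCT1 had negative and HFA1, CEM1 and ETR1 positive differences. PPT2 had 3 positive and 14 negative. The filter on dim genes left out MCT1 and HTD2.

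The count of all genes past the threshold, 34, became 74 with a common median, 176 with array weights, 121 with the replicate block and 68 at an adjusted p of 0.1, and lay between 4 and 123 when single arrays were left out: 5 without wild type replicate 2, 123 without wild type replicate 3, and 5, 4 and 7 without ACC1 overexpression replicates 1, 2 and 3. For the lipoate-dependent complexes the count of 1 became 0 with the 3 normexp settings, a common median, cyclic loess and trended, robust variances, and 2 with array weights and the block, and lay between 0 and 2 when single arrays were left out. For the respiratory chain the count of 2 became 1 with normexp at offset 0 and 3 with array weights, and lay between 0 and 3 when single arrays were left out. For the cytosolic counterparts the count of 2 became 3 with array weights, the block and without wild type replicate 3. For the HAP genes the count of 0 became 2 with array weights and with the block and lay between 0 and 1 when single arrays were left out. Of 776 values of single genes under an alternative, 723 stayed on the same side of the threshold, 29 lost the call and 24 gained one. The cause was not tested.

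Deviations of arrays from their group means were correlated between the groups. For the same numbers 1, 2 and 3, r was 0.467, −0.021 and 0.385. Between unlike numbers, r was −0.498 for ACC1 overexpression replicate 1 with wild type replicate 3. It was −0.367 for ACC1 overexpression replicate 3 with wild type replicate 1, and between −0.073 and 0.086 for the rest. The main fit did not pair the numbers, and the block was kept as an alternative. Whether arrays of the same number share an effect of position was not tested. Array weights were 3.60 for wild type replicate 2, and 0.439 and 0.480 for the other wild type arrays. Signal over background limits all 8 genes.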

Other observations

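The letters listed for the probes are those of the strand opposite to the coding one. All 979 probe names end in a pair of positions of which the first is the larger, and the distance between them equals the probe's length in all 979. Read as the reverse complement in the frame these positions give, 0 of 979 probes held a stop codon, while 441, or 45.0%, did as listed. Per the labels' protocol, the labelled RNA was also of the antisense strand. Neither the headers nor the labels say whether the listed letters are those of the strand fixed on the array.

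Of the 46 spots with a pixel standard deviation above their median, 43 were spots of yeast genes. Leaving them out moved the difference of HFA1 by more than that of any other of the 8 genes.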
